A study of Mus musculus with 6 samples.

Results

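Cadherins, the catenins that tie them to actin, the desmosomal linkers plakoglobin and desmoplakin, and the secreted adhesion protein corneodesmosin were followed in CT26 cells with reduced Sep15. The 10 genes are Cdh1, Cdh2, Cdh3, Cdh11, Ctnnb1, Ctnna1, Ctnnd1, Jup, Dsp and Cdsn. They were taken by gene symbol from the platform annotation, which gave 22 of 45037 probe sets, and 10 of 18193 genes. CT26 is a colon carcinoma line of BALB/c mice that grows when transplanted. Of the 6 samples, 3 were CT26 cells transfected with the empty pU6-m3 vector, called control here, and 3 were CT26 cells transfected with pU6-m3 carrying a short hairpin RNA against Sep15 (now Selenof), a selenoprotein of the endoplasmic reticulum. Each sample was measured on 1 Affymetrix Mouse430_2 array. Within a group each array had its own mRNA sample. Whether these came from separate transfections, and whether the cells were clones or pools, is not given in the sources used here, so p-values measure only the spread between these samples. All shSep15 samples carry the same hairpin.

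Values are on the log2 scale of the deposited table, in which 1 unit is a 2-fold difference. Array medians lay between 5.83 and 5.87. Correlations across probe sets were 0.993 to 0.996 between arrays of a group and 0.975 to 0.980 between groups. The background level, 6.02, is the 95th percentile over 80 probe sets of odorant and pheromone receptors, genes expressed mainly in sensory tissue; genes whose group means both lie under it are called near background. Selenof read 12.40 in control and 9.48 in shSep15 cells on its brighter probe set. Of 12 fixed markers of colon epithelium, 5 were above background in at least 1 group. These were Epcam, Krt18, Krt20, Lgals4 and, just over the level at means of 6.07 and 6.06, Krt8. The rest, Cdx1, Cdx2, Vil1, Muc2, Krt19, Cldn7 and Tff3, were near background, and 9 of 11 fibroblast markers were above it. The colon list thus gave mixed readings, and the labelled colon origin was not tested.

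Classical cadherins are transmembrane proteins that bind like cadherins on the next cell through calcium-dependent extracellular repeats. Inside the cell, β-catenin or plakoglobin binds the cadherin tail and α-catenin, which in turn binds actin; β-catenin also carries Wnt signals in the nucleus. In desmosomes, plakoglobin and desmoplakin link the related desmosomal cadherins to intermediate filaments. Corneodesmosin is a glycoprotein known from the outer epidermis and hair follicle, where it is secreted into the modified desmosomes of cornified cells and cleaved by kallikreins as these cells are shed.

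Corneodesmosin is the member with the greatest difference, so the windows around its annotated starts are printed here. In the table of RefSeq windows used here (GRCm38.p6), 5 of the 10 members were matched, and Cdsn has a window at each of 2 starts that lie 9027 bases apart on the plus strand of chromosome 17. Each window runs from 250 bases before the start to 50 after it. Capitals mark matches, on either strand, to CACCTG, the E-box bound by Snail and Zeb factors, or to CACCC, the core of sites for Krüppel-like factors.
Cdsn start 1, chr17:35542851-35543150: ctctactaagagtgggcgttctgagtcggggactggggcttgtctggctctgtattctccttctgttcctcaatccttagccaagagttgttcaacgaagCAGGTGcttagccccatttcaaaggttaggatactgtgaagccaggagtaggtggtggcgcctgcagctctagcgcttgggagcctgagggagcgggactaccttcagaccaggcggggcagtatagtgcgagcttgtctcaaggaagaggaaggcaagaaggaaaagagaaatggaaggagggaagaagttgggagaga
Cdsn start 2, chr17:35551878-35552177: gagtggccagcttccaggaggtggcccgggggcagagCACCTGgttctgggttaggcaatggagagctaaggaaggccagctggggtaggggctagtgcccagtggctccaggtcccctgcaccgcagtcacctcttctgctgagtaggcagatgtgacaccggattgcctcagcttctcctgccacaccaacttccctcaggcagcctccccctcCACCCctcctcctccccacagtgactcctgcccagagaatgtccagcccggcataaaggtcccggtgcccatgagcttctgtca
Start 1 has 1 CACCTG match and 0 of CACCC, and start 2 has 1 of each; these motifs do not overlap there. CACCTG is found in 20.2% and CACCC in 57.5% of the 32851 windows of the same length, so neither is rare. The AP-1 motif TGANTCA, found in 7.81% of windows, has 0 matches in either. A match is a description of the letters and not a binding site. Which of the starts CT26 cells use was not measured, since the array has 1 probe set for the gene.

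The comparison asked how this adhesion machinery differed once Sep15 was knocked down. Corneodesmosin was lost almost to background, N-cadherin was higher, α-catenin was lower, and β-catenin was higher by limma call on 1 of its 3 probe sets. The last 3 differed by less than 2-fold. E-cadherin, P-cadherin, cadherin-11 and desmoplakin stayed near background in both groups. By the brightest probe set of a gene, 2 members rose, 2 fell and 6 were not past the threshold (limma, Benjamini-Hochberg adjusted p under 0.05 over 45037 probe sets). Over all genes 25.0% were called, 12.2% as rises and 12.8% as falls, so 4 calls among 10 genes are read against about 1 in 4. The median log2 difference of the members was 0.05, against 0.01 over all genes, and the median absolute difference 0.24 against 0.16. Among called genes alone, the median absolute difference was smaller for the members, 0.40 against 0.64. By probe set, 3 of 22 rose and 3 fell, where 9.71% of all probe sets rose and 9.66% fell, 19.4% in all. The groups did not overlap for 6 member genes, where this held for 38.1% of all genes.

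**Figure D1:**
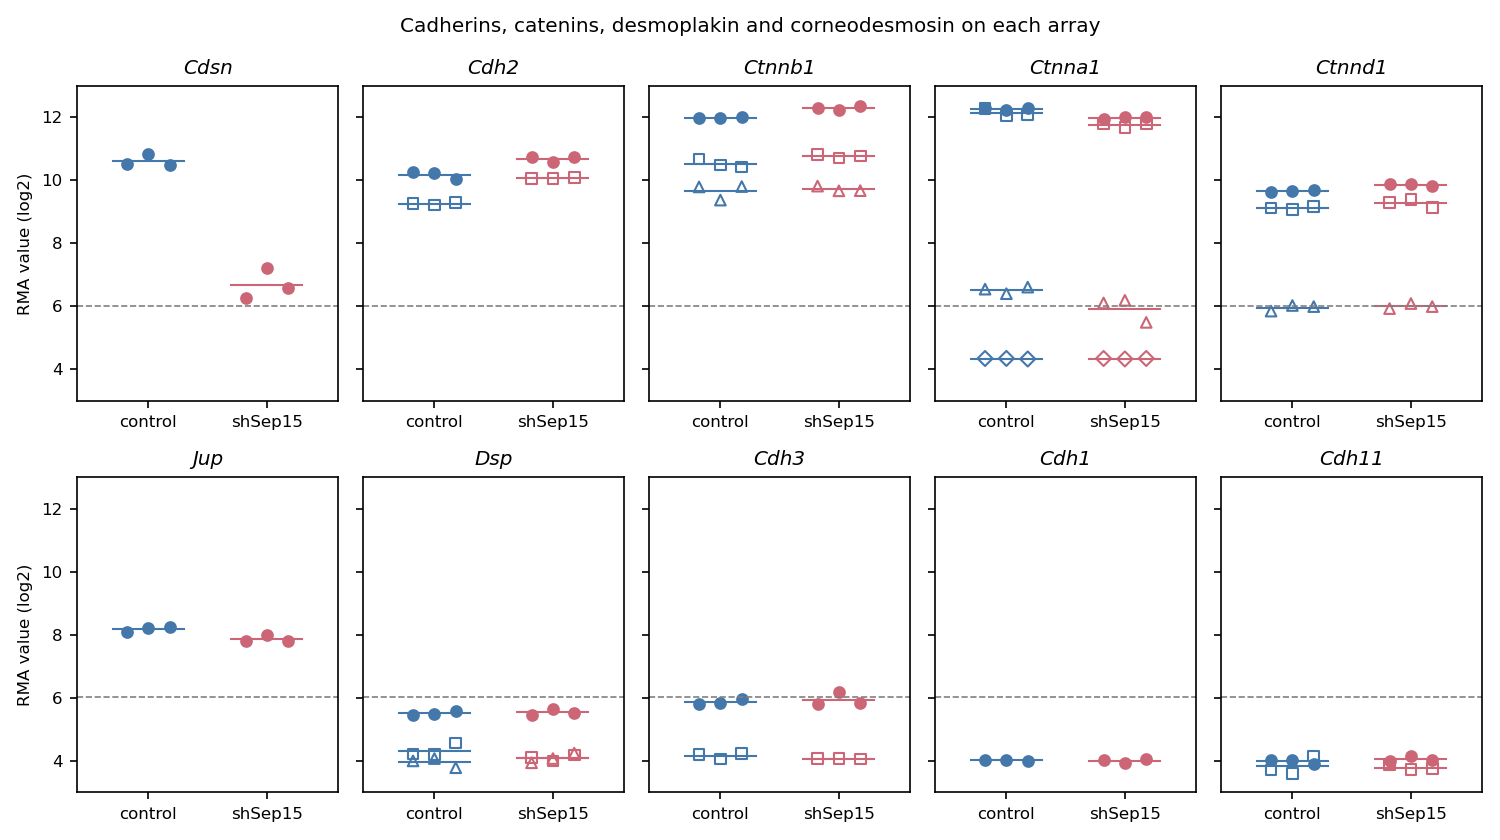
RMA value (log2) of every member probe set on each of the 3 control (blue) and 3 shSep15 (red) arrays; lines are group means, filled symbols the brightest probe set of a gene, open symbols its other probe sets, and the dashed line the background level of 6.02. Cdsn drops from 10.62 to 6.69 on average, Cdh2 shifts upward on both probe sets, and Dsp, Cdh3, Cdh1 and Cdh11 lie near or under the dashed line.

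Cdsn read 10.52, 10.85 and 10.50 on the control arrays and 6.28, 7.21 and 6.59 on the shSep15 arrays. Every shSep15 array lay far below every control array, and the shSep15 arrays differed more among themselves (SD 0.47) than the control arrays (SD 0.19). The log2 difference was −3.93 (SE 0.22, n = 3 per group, limma adjusted p = 6.20e-06), a 15.3-fold lower signal with a 95% interval of −4.42 to −3.44. It is the 10th lowest difference of 18193 genes. Its shSep15 mean of 6.69 is close to the background level, where differences of RMA values are compressed. The kallikreins Klk5 and Klk7, which cleave the protein in skin, and their inhibitor Spink5 were near background in both groups. The 10 keratinocyte markers gave 0 limma calls and 0 at an unadjusted p under 0.05. Above background were 3 of them, Krt5, Krt10 and Lor, all under the 99th percentile of the receptor probe sets, 7.53. The summed linear signal of the list was 581 to 665 on control and 597 to 616 on shSep15 arrays.

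Cdh2 encodes N-cadherin, the classical cadherin of neural and mesenchymal cells. Its brighter probe set read 10.28, 10.25 and 10.04 on control arrays and 10.74, 10.59 and 10.74 on shSep15 arrays. It was higher on every shSep15 array, by a log2 of 0.50 (SE 0.09, limma adjusted p = 0.00388), or 1.42-fold. The other probe set read 9.27, 9.22 and 9.30 in control and 10.07, 10.07 and 10.10 in shSep15 cells. Here too the groups did not overlap, and the difference was 0.82 (SE 0.08, limma adjusted p = 0.000157), or 1.77-fold, so both probe sets rose.

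The other 3 cadherins among the members read near background in both groups. Cdh1, the E-cadherin of epithelia, read 4.04, 4.03 and 4.01 on control and 4.01, 3.93 and 4.08 on shSep15 arrays, a difference of −0.02 with a 95% interval of −0.17 to 0.13 (limma adjusted p = 0.899). The arrays of both groups overlapped far under the background level. Cdh3, the P-cadherin of basal epithelia, had means of 5.88 and 5.95 on its brighter probe set (difference 0.07, limma adjusted p = 0.805). Cdh11, a cadherin of mesenchymal and bone-forming cells, had means of 3.98 and 4.07 (difference 0.08, limma adjusted p = 0.541). Together with Dsp these genes have 8 probe sets, all between 3.60 and 6.19 on every array, with 0 limma calls, differences of −0.23 to 0.13 and a lowest adjusted p of 0.221.

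Ctnnb1 encodes β-catenin. Its brightest probe set read 11.98, 11.98 and 12.03 on control arrays and 12.30, 12.23 and 12.35 on shSep15 arrays. The groups did not overlap, and the difference of 0.30 (SE 0.05, limma adjusted p = 0.00301) is 1.23-fold. The second probe set differed by 0.24 (limma adjusted p = 0.0936) and the third by 0.06 (0.813), neither past the threshold. The mean of the 3 probe sets gave 0.20, which ended the call (limma adjusted p = 0.0753).

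Ctnna1 encodes αE-catenin, the actin-binding link of the complex. It read 12.31, 12.24 and 12.29 on control arrays and 11.96, 12.02 and 12.01 on shSep15 arrays. All shSep15 arrays were lower, and the difference of −0.28 (SE 0.05, limma adjusted p = 0.00333) is 1.22-fold. A second bright probe set fell by 0.37 (limma adjusted p = 0.00579). The third, above background in control cells alone, differed by −0.59 (limma adjusted p = 0.0517), and the fourth was near background at 4.34 in both groups.

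Ctnnd1 encodes p120-catenin, which binds the cadherin tail next to the membrane and keeps cadherins at the surface. Its brightest probe set read 9.62, 9.66 and 9.69 in control and 9.88, 9.88 and 9.82 in shSep15 cells. The groups did not overlap, yet the difference of 0.20 (95% interval 0.02 to 0.39, not adjusted for the number of tests) was not past the threshold (limma adjusted p = 0.138). Its other probe set above background differed by 0.15 (limma adjusted p = 0.389).

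Jup encodes plakoglobin, the close relative of β-catenin that serves both adherens junctions and desmosomes. It read 8.08, 8.22 and 8.24 on control arrays and 7.81, 7.99 and 7.80 on shSep15 arrays. Again the groups did not overlap, and the difference of −0.32 (95% interval −0.57 to −0.06, unadjusted) did not pass (limma adjusted p = 0.0917). It passed without the intensity trend of eBayes (limma adjusted p = 0.0497) and when a gene was the mean of its probe sets (0.0348). Jup has 1 probe set, so its values were the same in the latter fit, where the model and the adjustment ran over genes. Dsp, desmoplakin, had means of 5.51 and 5.55 on its brightest probe set (difference 0.04, 95% interval −0.19 to 0.27, limma adjusted p = 0.847). Both desmosomal linkers thus lacked a call, one of them above background and the other near it.

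**Figure D2:**
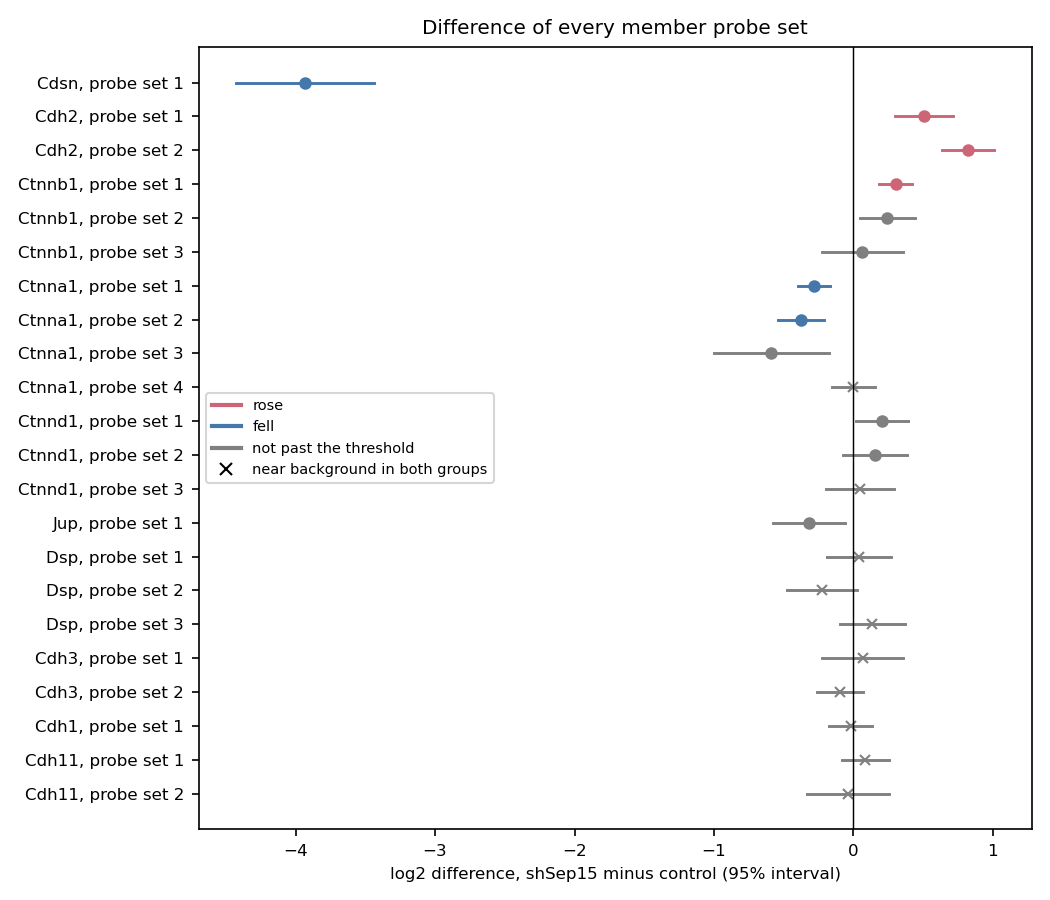
Log2 difference, shSep15 minus control, of each of the 22 member probe sets with its 95% interval (horizontal lines, not adjusted for the number of tests); colour gives the limma call and crosses mark probe sets near background in both groups. Cdsn at −3.93 stands apart, while every other probe set lies between −0.59 and 0.82.

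The counts of the lists that follow stand against 25.0% of all genes called, 12.2% as rises and 12.8% as falls. Of 33 other measured cadherins and protocadherins, 2 rose and 3 fell, a smaller share than over all genes, with a median difference of 0.02, and 9 were above background. Pcdh18, a protocadherin, rose by 1.53 (SE 0.14, limma adjusted p = 9.30e-05), as did both its other probe sets, and the giant cadherin Fat1 rose by 0.48. Cdh26 (−0.95) and Pcdh1 (−0.84) fell, as did Celsr1 (−0.71), which was near background in both groups. The call of Celsr1 ended without control 1 or 2 or without any 1 of the shSep15 arrays (limma adjusted p = 0.0558 to 0.0695).

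Among 22 other components of adherens junctions, 5 rose and 4 fell (median 0.12). The rises were of actin-linking or catenin-related genes: the α-catenin-like Ctnnal1 by 1.02 (SE 0.15, limma adjusted p = 0.00120), the β-catenin inhibitor Ctnnbip1 by 0.82, vinculin (Vcl), which binds stretched α-catenin, by 0.67, and the α-actinins Actn1 and Actn4 by 0.65 and 0.32. The 1 further probe set of Vcl above background was not called. Nectin2, an immunoglobulin-type adhesion receptor, fell by 1.90 (SE 0.10, limma adjusted p = 5.52e-06), from 10.32 to 8.42. Its relative Pvr (−0.76), the junction protein vezatin, Vezt (−0.78), and the polarity protein Pard3 (−0.77) fell as well. Of the further probe sets of Pvr, 4 above background also fell, whereas 1 near background in both groups rose (0.93, limma adjusted p = 0.000816). Vcl, Actn1, Actn4, Pvr and Pard3 were named after their values were seen. Of 21 measured genes of the desmosome and cornified envelope besides Jup, Dsp and Cdsn, limma called 0, with 2 at an unadjusted p under 0.05, and 8 were above background.

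Of 20 regulators of the epithelial and mesenchymal states, most of them transcription factors, 5 fell and 1 rose, with a median of −0.17. Over all genes 12.8% fell and 12.2% rose. Klf4, a Krüppel-like factor of differentiating epithelium, fell by 1.55 (SE 0.15, limma adjusted p = 0.000112) and Klf5 fell by 0.62, though the 1 other probe set of Klf5 above background was not called. Foxc2 fell from 6.37 to 5.72, under the background level. Snai2 (−0.60) and Zeb1 (−0.61), which are among the factors that can repress E-cadherin, fell. Their means went from 11.81 and 9.84 to 11.21 and 9.24, so both stayed well above background. The second probe set of Snai2 fell as well, whereas the 1 other probe set of Zeb1 above background did not (difference −0.06), and the mean over its probe sets ended the call of Zeb1 (−0.14, limma adjusted p = 0.358). The helix-loop-helix factor Tcf3 rose by 0.54. Snai2 and Tcf3 were named after their values were seen. Zeb2, Snai1 and Twist1 differed by −0.56, −0.23 and 0.33 and were not called (limma adjusted p = 0.0613, 0.314 and 0.0707). Zeb2, too, was named after its values were seen. Cdh1 stayed near background.

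Among 21 measured genes that degrade β-catenin or act with it in the nucleus, 4 rose and 4 fell (median −0.01). The rises were of the co-activators Bcl9 (1.30, SE 0.14, limma adjusted p = 0.000247), Bcl9l (0.42) and Pygo2 (0.55) and of the DNA-binding partner Tcf7l2 (0.74). The falls were of the co-repressors Tle1 (−0.57), Tle3 (−0.72) and Tle4 (−0.71) and of the scaffold Apc (−0.71), which acts in β-catenin destruction. Bcl9l, Pygo2, Tle1 and Apc were named after their values were seen. The call of Tcf7l2 ended without shSep15 1 (0.63, limma adjusted p = 0.0718) or shSep15 3 (0.70, 0.0724), and 0 of its 2 further probe sets above background had a limma call. That of Bcl9l ended without any 1 of the control arrays, without shSep15 2 or without shSep15 3 (limma adjusted p = 0.0560 to 0.145) and with the mean of its probe sets (0.16, 0.204). Axin2, a target of β-catenin signalling in many tissues, was near background in both groups (difference 0.03, limma adjusted p = 0.884).

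Of 16 measured genes for proteases, γ-secretase subunits, kinases and phosphatases that cut or modify cadherin complexes, 2 rose and 2 fell (median 0.03). The kinase Fyn fell by 1.23 (SE 0.12, limma adjusted p = 9.87e-05) on its brighter probe set, and its other probe set fell too. The γ-secretase subunit Aph1a rose by 1.13, though 0 of its 2 further probe sets above background had a limma call, while the subunit Ncstn fell by 0.53. The Ncstn call ended without shSep15 2 (−0.51, limma adjusted p = 0.0523) and with the mean of its probe sets (−0.25, 0.101). The metalloprotease Adam15 rose by 0.55, and a further probe set rose by 0.74. Its remaining probe sets, also above background, differed by 0.45 and 0.45 and were not called (limma adjusted p = 0.0516 and 0.0597). Adam10, which sheds the outer part of N-cadherin and E-cadherin, differed by 0.26 (limma adjusted p = 0.214).

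**Figure D3:**
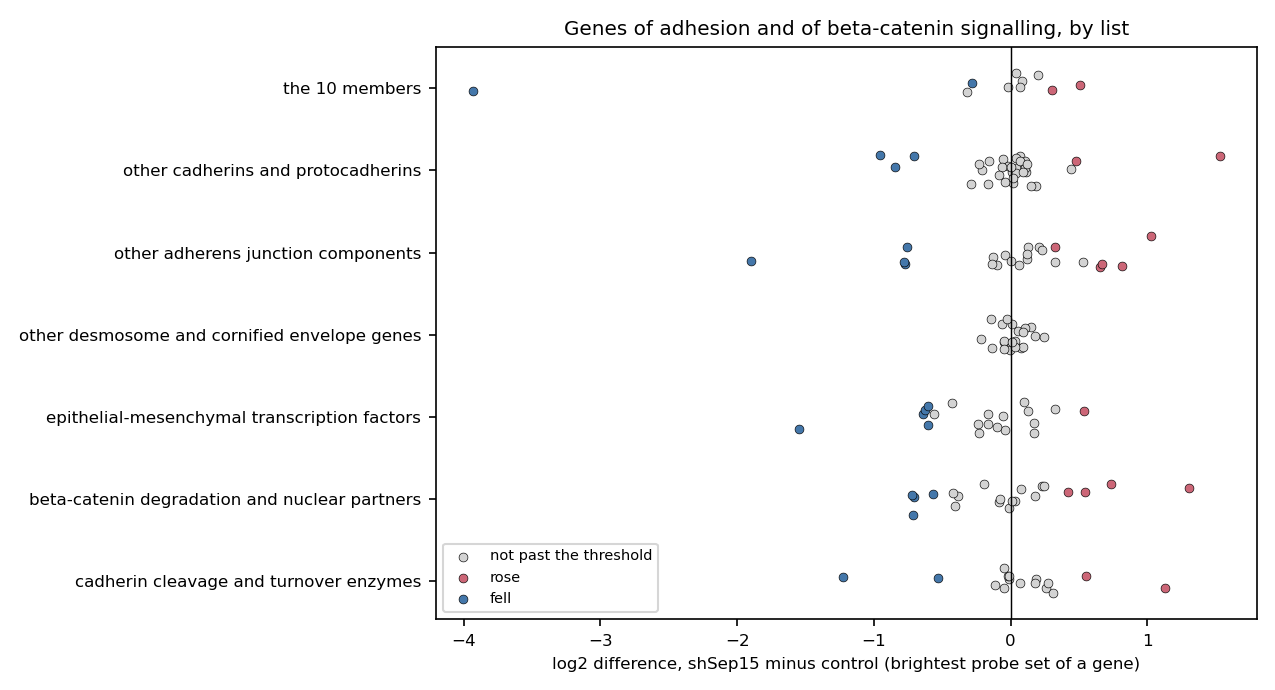
Log2 difference, shSep15 minus control, of the brightest probe set of each gene (1 point a gene) for the 10 members and 6 further lists; points are spread vertically at random within a list, and colour gives the limma call. No listed gene lies as far from 0 as Cdsn at −3.93, and the desmosome and cornified envelope list holds 0 coloured points.

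Markers of other cells gave mixed readings beside these values. Of the 12 colon epithelial markers, 3 fell, Krt18 from a mean of 6.65 to 4.48, Krt20 from 8.28 to 6.15 and Lgals4 from 6.85 to 5.84, and the summed linear signal of the list was 1011 to 1193 on control and 651 to 755 on shSep15 arrays. Of 11 fibroblast markers 4 rose and 3 fell, with sums of 23558 to 25043 and 26005 to 29111. Pdgfrb fell from 9.05 to 5.69, Col3a1 from 10.66 to 8.39 and Dcn from 7.79 to 6.07, while Pdgfra rose by 1.35 on its brightest probe set and differed by −0.02 on the 1 other above background. Col1a1, Col1a2 and Vim, named after their values were seen, rose by 1.32, 0.64 and 0.23. A second probe set of Vim rose by 0.36, and the third was not called (0.26, limma adjusted p = 0.052). The falls of Krt18, Lgals4 and Pdgfrb end under the background level, so their sizes are not exact. Of 7 measured leukocyte markers 4 were above background, Cd14, Cd68, Csf1r and Cd3e. Csf1r (means 7.11 in control and 7.20 in shSep15 cells) and Cd3e (6.26 and 6.39) were not called. Of these 4 only Cd14 exceeded the 99th percentile of the receptor probe sets, 7.53. In this list 3 fell, Cd68 from 7.47 to just under the background level, Cd14 from 9.33 to 8.60 and, near background, Itgam from 4.98 to 4.61, the last named after its values were seen, with sums of 1044 to 1235 on control and 716 to 830 on shSep15 arrays. Of 6 endothelial markers Cd34 and Kdr were above background, Kdr only just, with means of 6.24 in control and 6.22 in shSep15 cells. Cd34 fell (−0.75), and the sums of the list were 3887 to 4705 on control and 2398 to 2922 on shSep15 arrays. Among the rest, Ptprc, which marks all leukocytes, and the endothelial Pecam1, Tek, Tie1 and Emcn were near background in both groups. All samples are labelled as cells of the CT26 line, and the labels give no mixture of cell types. Bulk values alone cannot tell fewer cells of a type from less RNA per cell. The part of these marker shifts in the member values was not tested.

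Gene order in RefSeq (GRCm38.p6) was used to set each called member beside its neighbours above background. Cdsn lies on chromosome 17, in the region of the major histocompatibility complex. Its 3 neighbours on one side were H2-D1, which fell by 0.27, Tcf19, a gene linked to cell proliferation, which rose by 2.42, and Cchcr1, which rose by 0.40. On the other side Vars2, Gtf2h4 and Ddr1 differed by 0.14, 0.23 and 0.03 and were not called, so 1 of the 6 neighbours fell, by far less than Cdsn. Over the 561 genes above background on chromosome 17, 31.6% rose and 8.38% fell. The shares by chromosome, here and below, leave out genes near background. They are thus not directly comparable with the shares over all genes.

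Cdh2 and Ctnna1 both lie on chromosome 18, where 6.02% of 266 genes above background rose and 45.9% fell, with a median of −0.30. Cdh2 is thus among the 16 rises of that chromosome. Of its 6 neighbours 2 fell, Taf4b (−0.90) and B4galt6 (−0.97), and 0 rose by limma; the adhesion gene Dsg2, next to it, differed by −0.14 (limma adjusted p = 0.576). The Ctnna1 difference of −0.28 is close to the chromosome's median. Of the neighbours of Ctnna1, 4 of 6 fell, Egr1 (−2.28), Etf1 (−0.91), Hspa9 (−0.72) and Sil1 (−0.58). Ctnnb1 lies on chromosome 9, where 13.3% of 609 genes rose and 20.4% fell, and of its 6 neighbours Eif1b fell by 0.50 and 5 were not called.

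**Figure D4:**
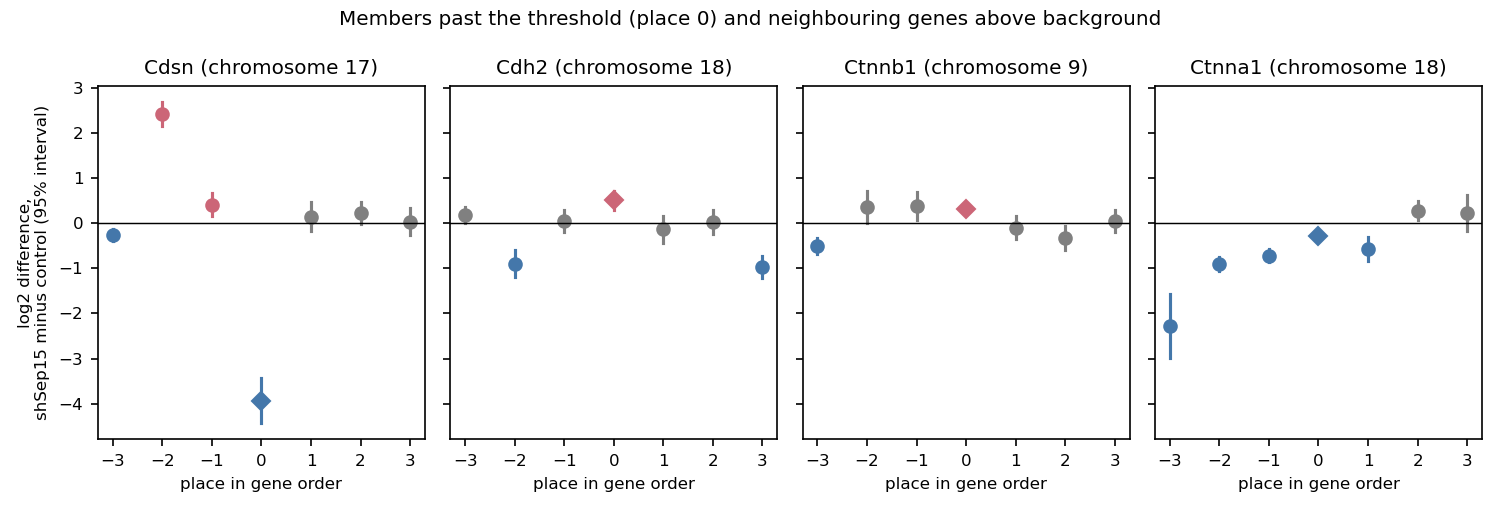
Log2 difference, shSep15 minus control, with its 95% interval, for the 4 called members (diamonds at place 0) and the 3 nearest genes above background on either side in RefSeq order; red rose, blue fell and grey was not past the threshold. Cdsn at −3.93 lies beside a neighbour that rose by 2.42, and 4 of the 6 neighbours of Ctnna1 fell.

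Genes with a pattern most like each called member were found by the Euclidean distance, over the 6 arrays, between log2 values centred on each gene's own mean. Because the groups are far apart, the measure depends largely on the size of the group difference. Closest to Cdsn were Afp, the fetal serum protein α-fetoprotein (distance 0.63, difference −3.68), the secreted phospholipase Pla2g2e (0.80, −3.61), the guidance ligand Slit3 (0.84, −3.84) and Ifitm1, an interferon-induced membrane protein (0.84, −3.73). Afp and Slit3 have shSep15 means of 5.93 and 5.91, under the background level, so their differences are not exact. Closest to Cdh2 were the adhesion receptor Adgra3 (distance 0.07, difference 0.56), Efcab7, the proteoglycan Sdc2 and Prpf19. Closest to Ctnnb1 were 5530601H04Rik (distance 0.06), Spin1, the transcription factor Etv4 and Polr2i, of which 5530601H04Rik and Etv4 were not past the threshold. For Ctnna1 they were Ubxn6 (distance 0.04), Ube4b, Zfp90 and Dok3, of which only Ube4b was called. Dok3 has a shSep15 mean of 5.97, under the background level.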

How the data were processed

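RNA of 3 control and 3 shSep15 samples of CT26 cells was extracted with TRIzol and hybridised as biotinylated cRNA (per the labels' protocols). The deposited values are log2 summaries of probe sets by RMA, which removes background and brings the arrays to a common distribution, per the submitters' processing notes; its version is not given in the sources used here. Such values cannot show a shift in the RNA content of whole cells. The number of arrays limits the precision.

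The table has 45101 probe sets, of which 64 are array controls and were left out. In the platform annotation 34945 of the rest had 1 symbol, 932 several and 9160 none, and only the first kind was named; symbols were updated by gene identifier through RefSeq (34741 matched). A gene was its brightest probe set over the 6 arrays. The model was fitted to all probe sets with limma 3.58.1 (lmFit, eBayes with intensity trend) in R 4.3.3, two-sided, with the group as the only term, and adjusted by Benjamini-Hochberg; the fit was tested on simulated data. The members and lists were chosen with earlier results of these data known. Text names every member and the 4 genes most like each called member. From each list it names up to 4 called genes above background with the largest differences. Of the 3 neighbours on each side it names all for Cdsn, and for the other called members those with a call and Dsg2. Among the neighbours not named is 1 without a settled gene identity. Genes named beyond this rule are marked or are those a count or a member's description turns on.

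The numbers in the titles were checked as pairs: deviations from group means correlated at 0.38, −0.15 and −0.02 for same-numbered samples, so the numbers were not taken as pairs. Alternatives were the eBayes trend, a replicate block, each array left out, a shift to equal medians, a filter on dim probe sets, array weights, mean probe sets, unique probe sets and other background levels.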

Additional observations from a re-analysis of the deposited data

How the results depend on the processing

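Cdsn, Cdh2 and Ctnna1 kept their direction and their call under every alternative run. Leaving out 1 array at a time gave −4.19 to −3.72 for Cdsn, 0.43 to 0.55 for Cdh2, 0.27 to 0.33 for Ctnnb1 and −0.30 to −0.26 for Ctnna1, with 4 member genes called each time. Called probe sets then numbered 6627 to 7933 over the whole table, against 8722. Ctnnb1 lost its call when a gene was the mean of its probe sets (0.20, limma adjusted p = 0.0753), and Jup gained one there (−0.32, 0.0348) and without the eBayes trend (−0.32, 0.0497). As Jup has 1 probe set, its values did not change there, only the model and the adjustment, which ran over genes. The setting of unique probe sets dropped those ending in _s_at, _x_at or _a_at. It left out all 3 probe sets of Ctnnb1 and the 1 of Jup, so it could not test these genes. The desmosome and cornified envelope list, with 0 calls, had 1 without control 1, with array weights or with only bright probe sets, and 2 with mean probe sets. With the replicate block 4 member genes and 9052 probe sets were called. Not every sample correlated best with its own number. Member genes above background numbered 6 at the 95th and 99th percentile of the receptor probe sets and 8 at their median. The other calls that ended stand beside their genes, except those of Vim without the trend (0.23, limma adjusted p = 0.0887) and of Itgam without control 2, shSep15 2 or shSep15 3 (0.0645 to 0.0771). For genes near background, such as Cdh1, Cdh3, Cdh11 and Dsp, a fall could go unseen and the size of a difference is not exact.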
